A study of Mus musculus with 2 samples.

Results

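To follow the circadian clock in the lung endothelium during the first hours of melanoma colonization, 10 clock genes were described in single cells of mouse lungs: Arntl, Per1, Per2, Per3, Cry1, Ciart, Nr1d1, Nr1d2, Dbp and Tef. They were chosen by name from the 31053 genes listed in the count tables, with earlier results of these data known. All 10 were found under their symbols. The control library came from wild-type C57BL/6 mice 6 h after tail vein injection of PBS, and the metastatic library from wild-type C57BL/6 mice 6 h after injection of 200000 B16-F10 cells per mouse. B16-F10 is a mouse skin melanoma line, and the cells were labelled with CellTracker Green dye before injection. Each library held the pooled lung cells of 2 mice, sorted for PECAM1, a surface protein of endothelial cells that some blood cells also carry. Per the study's methods the injected C57BL/6 mice were males of 8 to 10 weeks kept under alternating dark and light. The clock hour at which each group was injected and killed is not given in the sources used here. With 1 library per group there was no replicate, so no difference between the groups could be tested, and the treatment, the pool of mice and the handling of each library cannot be told apart.

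The libraries held 67929614 control and 64733724 metastatic unique molecular identifiers (UMIs, the tags that mark each captured RNA molecule). Barcodes with 1000 to 5000 detected genes and less than 20% mitochondrial UMIs were taken as cells, which left 7134 and 6466, and 16 called barcodes were shared by the libraries. Endothelial classes were assigned from marker genes, none of which is a clock gene. General capillary cells (gCap) carry Gpihbp1, Aplnr, Kit or Lpl and made up 3212 cells in the control library (median 5761 UMIs) and 3043 in the metastatic library (median 6081 UMIs). Aerocytes (aCap), the large capillary cells of the gas exchange surface, carry Ednrb, Fibin or Tbx2 and formed 1364 and 1086 cells. Vein cells (Slc6a2, Car8, Bst1) numbered 247 and 304, and artery cells (Gja5, Bmx, Fbln5) 63 and 59, while 2071 and 1802 cells fell in no class. The 5 general endothelial markers (Pecam1, Cdh5, Cldn5, Tie1, Kdr) summed to 4906 and 5304 CPM (counts per 1000000 UMIs) in gCap, whereas the 5 leukocyte markers summed to 37.0 and 55.2 CPM. Red cell RNA stood at 2443 CPM in control and 1120 CPM in metastatic gCap, and epithelial RNA at 376 and 119 CPM. A single control gCap barcode held 4514 of the 7382 epithelial UMIs, and a single control aerocyte barcode 5847 of 7155. In the metastatic vein class 2 of the 304 barcodes held 9509 of 9763 epithelial UMIs. Between control and metastatic vein cells, red cell RNA stood at 442 and 1347 CPM and leukocyte RNA at 18.6 and 138 CPM. The part of these RNAs in the results below was not tested, and the vein calls are also given with at least 2 endothelial markers required of every cell.

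The mammalian clock is a loop of transcription factors that most cells run with a period of about a day. The activators CLOCK and BMAL1 (encoded by Arntl) bind E-box sequences and switch on the Per and Cry genes, whose proteins return to the nucleus and repress the activators. The same activators drive Nr1d1 and Nr1d2, which encode the repressors REV-ERBα and REV-ERBβ, and Dbp and Tef, which encode activators of D-box sequences. REV-ERB proteins in turn repress Arntl, so that Arntl peaks in the opposite phase to Dbp and Nr1d1. In the lung, the clock sets daily rhythms of inflammatory gene expression. Per1 is also switched on directly by glucocorticoid hormones and by signals that act through cyclic AMP.

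Promoter sequences are shown because E-box and D-box motifs are the textbook elements through which the loop acts on these genes. RefSeq promoter windows (assembly GRCm38.p6, 250 bases before the transcription start) were given for 9 of the 10 members in 12 windows, since Arntl, Per1 and Tef have more than 1 start. No window was given for Per2, so its promoter was not searched. Each window was searched on both strands for the E-box CACGTG, its variant CACGTT, the D-box (TTATGTAA or TTACGTAA), the ROR element core TAGGTCA and the cyclic AMP element TGACGTCA. The stretches around the matches are printed 5′ to 3′ on the gene's strand, and the capitals mark the motif. A match on the opposite strand is read as its reverse complement, as in AACGTG.
Ciart (chr3:95882242-95882369, minus strand): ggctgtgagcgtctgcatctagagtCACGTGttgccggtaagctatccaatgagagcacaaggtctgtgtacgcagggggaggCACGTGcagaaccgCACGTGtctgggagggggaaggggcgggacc
Cry1 (chr10:85185084-85185158, minus strand): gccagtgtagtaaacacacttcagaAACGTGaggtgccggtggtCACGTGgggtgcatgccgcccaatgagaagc
Per1 (chr11:69098758-69098813, plus strand): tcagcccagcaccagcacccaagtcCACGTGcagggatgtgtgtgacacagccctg
Tef (chr15:81811251-81811306, plus strand): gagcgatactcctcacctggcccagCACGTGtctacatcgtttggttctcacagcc
Nr1d1 (chr11:98775378-98775430, minus strand): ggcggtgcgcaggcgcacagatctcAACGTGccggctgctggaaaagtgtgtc
Per3 (chr4:151044791-151044895, minus strand): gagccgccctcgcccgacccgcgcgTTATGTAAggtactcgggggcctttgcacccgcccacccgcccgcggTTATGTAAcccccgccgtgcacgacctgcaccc

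An E-box was found in 4 members (5 of 12 windows), against 6.02% of the 32851 RefSeq windows of the same length. The window of Ciart held 3 copies, at 116, 58 and 44 bases before the start. Per1 had 1 copy 166 bases before its first start, Cry1 1 copy 60 bases before its start, and Tef 1 copy 138 bases before the start at 81811414 on chromosome 15, beside 1 copy in its other window. The variant was in Cry1 and Nr1d1, against 3.85% of all windows. Per3 alone of the 9 members searched held the D-box, with 2 copies at 205 and 158 bases before the start, against 0.931% of all windows. Neither the ROR element core (2.23% of all windows) nor the cyclic AMP element (1.55%) was found in a member's window. These are matches of letters and not sites shown to be bound, and the windows of Dbp, Nr1d2 and Arntl held none of the 5 motifs.

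The first comparison asked which clock genes differed between metastatic and control gCap, the most numerous class. Per1 was the most different member with enough counts to judge. Per2 and Nr1d2 were also lower, Tef lay at the threshold, and Dbp was lower by less, with an interval that only just excluded 0. Arntl, Cry1, Per3 and Ciart differed by no more than counting error. Levels are the UMIs of all cells in a class, scaled to CPM, with exact Poisson intervals, and differences are log2 ratios of the metastatic to the control level with exact conditional binomial intervals. The intervals, at 95%, reflect the number of UMIs counted and say nothing of how mice vary.

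**Figure D1:**
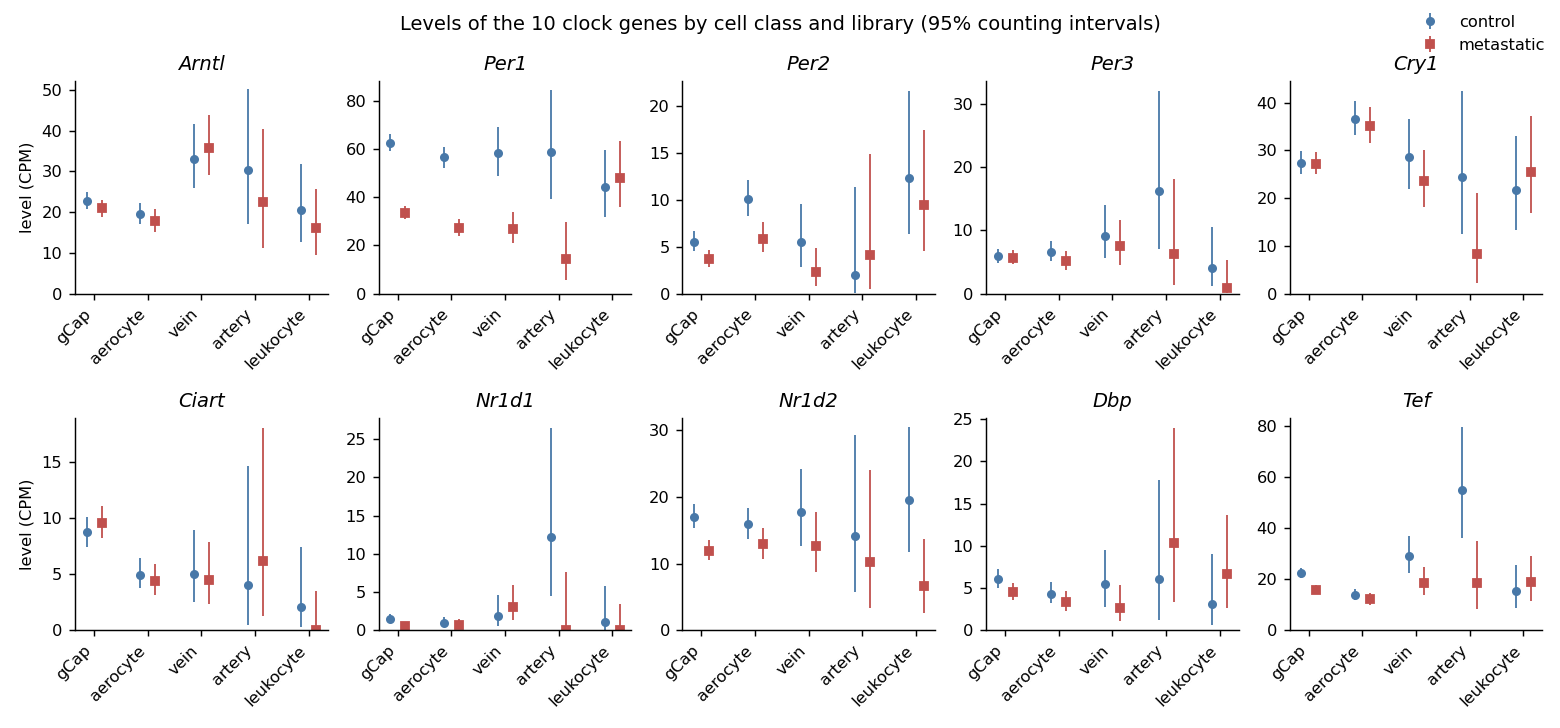
Level of each clock gene in CPM (vertical axes, each from 0) by cell class, with the control library as circles and the metastatic library as squares. Bars are 95% Poisson intervals, and the intervals of Per1 part in gCap, aerocytes, vein and artery cells but overlap in leukocytes.

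Per1 (ENSMUSG00000020893, GRCm38 chromosome 11, 69095217 to 69109960, plus strand) encodes a repressor of CLOCK and BMAL1. It was counted 1233 times in control and 654 times in metastatic gCap, that is, 62.8 CPM (59.4 to 66.4) and 33.6 CPM (31.1 to 36.3). The log2 ratio was -0.90 (-1.04 to -0.77), a 1.87-fold lower level. Only 0.490% of the 10413 genes with at least 100 UMIs in gCap lay lower than Per1. The difference was present in the share of cells as well as in the sum, and both draw on the same UMIs. Intervals of such shares are exact binomial ones over the cells of 1 library and say nothing of how mice vary. With every cell thinned to 2000 UMIs, at least 1 Per1 UMI was found in 12.1% (11.01 to 13.32) of 3158 control and 6.46% (5.61 to 7.40) of 3002 metastatic gCap. Without thinning these shares were 30.2% and 17.2%, and 220 control against 108 metastatic gCap held 2 or more Per1 UMIs. Thinning left out 54 and 41 shallower cells.

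Per2 (ENSMUSG00000055866, chromosome 1, 91415982 to 91459324, minus strand) encodes the partner repressor and was far less abundant in counts. It had 108 control and 71 metastatic UMIs in gCap, or 5.50 CPM (4.51 to 6.64) and 3.65 CPM (2.848 to 4.599), with a log2 ratio of -0.59 (-1.05 to -0.15). Without possible doublets, a rule that left 940 control and 1487 metastatic gCap, Per2 had 22 and 35 UMIs and a ratio of -0.06 (-0.87 to 0.78). That interval also holds the value from all gCap. Per3 (ENSMUSG00000028957, chromosome 4, 151003652 to 151044665, minus strand), a nonessential member of the family, had 115 and 110 UMIs, with a ratio of -0.05 (-0.44 to 0.34). Per3 lies within Camta1 on the same strand, so the assignment of its reads is uncertain. Of the 3 Per genes, then, the interval of Per3 alone held 0 in gCap.

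Cry1 (ENSMUSG00000020038, chromosome 10, 85131700 to 85185064, minus strand) encodes the cryptochrome that represses CLOCK and BMAL1. It was level between the libraries, with 538 and 530 UMIs, 27.4 CPM (25.1 to 29.8) and 27.2 CPM (24.95 to 29.64). The ratio of -0.01 (-0.19 to 0.17) leaves room for a difference of at most about 0.19 on the log2 scale by counting error. Ciart (ENSMUSG00000038550, chromosome 3, 95878503 to 95882251, minus strand), which encodes a small repressor of the same complex, was the only member above 0. Its 171 and 186 UMIs gave 8.71 and 9.55 CPM and a ratio of 0.13 (-0.17 to 0.44). The antisense gene C920021L13Rik covers the whole of Ciart, and use of strand in the counting is not given in the sources used here, so its counts are uncertain.

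Arntl (ENSMUSG00000055116, chromosome 7, 113207465 to 113314126, plus strand) encodes BMAL1, the activator of the loop. It had 447 control and 407 metastatic UMIs in gCap, or 22.8 CPM (20.71 to 24.99) and 20.9 CPM (18.9 to 23.0). The ratio was -0.12 (-0.32 to 0.07), so that no difference was detectable at this depth.

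Nr1d2 (ENSMUSG00000021775, chromosome 14, 18204054 to 18239127, minus strand) encodes REV-ERBβ. It was counted 335 and 233 times in gCap, at 17.1 CPM (15.3 to 19.0) and 12.0 CPM (10.5 to 13.6). The ratio of -0.51 (-0.76 to -0.27) was just past the threshold of -0.5, and over the alternatives it ranged from -0.65 to -0.49. Nr1d1 (ENSMUSG00000020889, chromosome 11, 98767932 to 98775333, minus strand), which encodes REV-ERBα, had 30 control and 11 metastatic UMIs, too few to enter the count of calls. Its ratio was -1.44 (-2.58 to -0.40). The 3′ end of Nr1d1 overlaps that of Thra on the opposite strand, so some of these UMIs could belong to Thra. Free RNA held Nr1d1 at 13.7 and 10.98 CPM, far above the 1.53 and 0.565 CPM of gCap. A 10% share of free RNA would supply 1.37 and 1.10 CPM of Nr1d1. Such a share would also bring far more RNA of the metallothionein gene Mt1 than gCap held. Mt1 stood at 2434 and 2556 CPM in free RNA and at 15.9 and 62.0 CPM in gCap. The part of free RNA in the Nr1d1 signal was not tested.

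Tef (ENSMUSG00000022389, chromosome 15, 81802421 to 81826863, plus strand) and Dbp (ENSMUSG00000059824, chromosome 7, 45705088 to 45710203, plus strand) encode related leucine zipper factors of the clock output. Tef had 438 and 308 UMIs, at 22.3 CPM (20.3 to 24.5) and 15.8 CPM (14.1 to 17.7). Its ratio of -0.497 (-0.71 to -0.28) was just short of the threshold. Dbp had 119 and 88 UMIs, at 6.06 CPM (5.02 to 7.26) and 4.52 CPM (3.62 to 5.57), with a ratio of -0.42 (-0.84 to -0.01). Dbp overlaps the 3′ end of Sphk2 on the opposite strand, and its counts are uncertain for that reason. Both D-box activators thus had ratios below 0 in metastatic gCap, near that of Nr1d2. The interval of Dbp held 0 under some alternatives, such as 3 markers for each class (-0.87 to 0.01) and no possible doublets (-0.79 to 0.55).

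**Figure D2:**
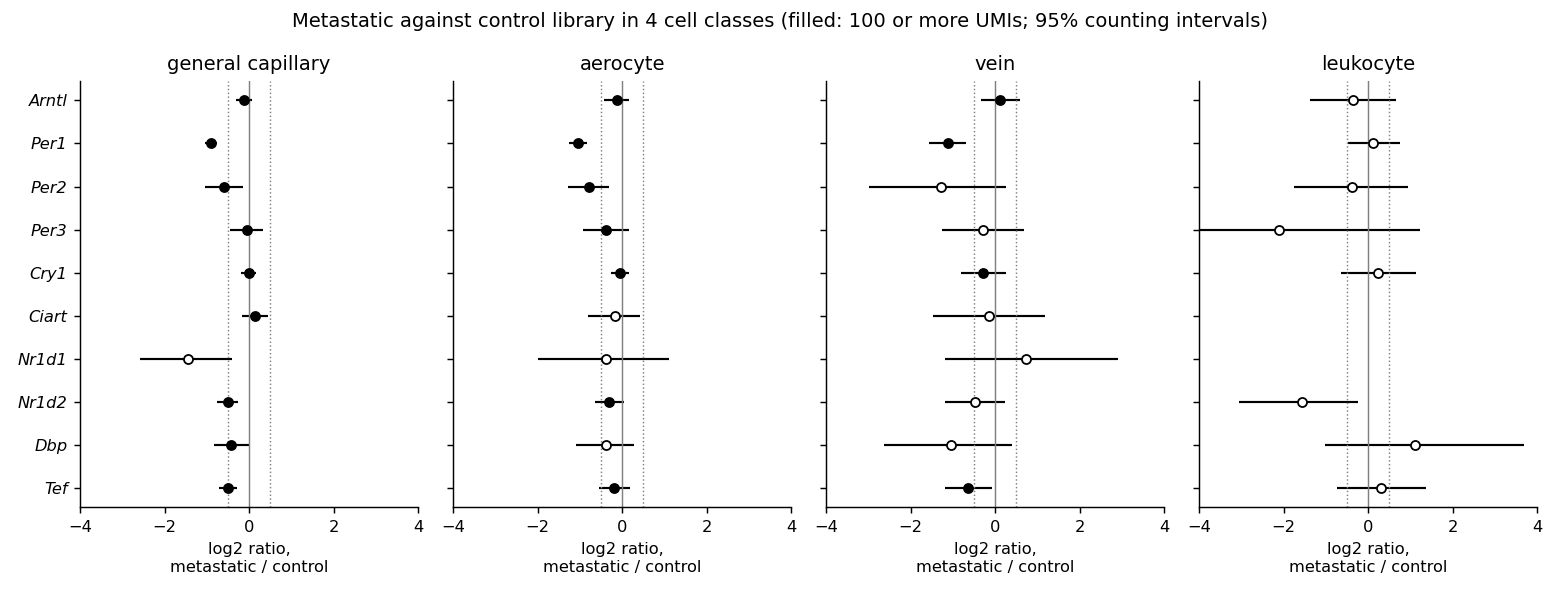
Log2 ratio of the metastatic to the control level (horizontal axes) for each clock gene in gCap, aerocytes, vein cells and leukocytes. Filled points had at least 100 UMIs over both libraries, bars are 95% counting intervals (that of Per3 in leukocytes runs past the axis), dotted lines mark -0.5 and 0.5, and Nr1d1 and Ciart have no point in leukocytes because the metastatic leukocytes held no UMI of them.

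Counted over the members, 9 of 10 had at least 100 UMIs in gCap. Of these, 3 (Per1, Per2 and Nr1d2) were below -0.5 and 0 were above 0.5. Among all 10413 genes with that depth, 2.33% were below -0.5 and 4.81% were above 0.5. Because the members were chosen with earlier results of these data known, these shares describe the list and do not test it. The median ratio of the 10 members was -0.46, beside 0.02 for all these genes. The interval lay below 0 for 6 of the 10 members and for 14.6% of all genes, and above 0 for 0 members and 22.4% of all genes. The member median and the 6 include Nr1d1, with 30 and 11 UMIs, whereas the all-gene values take only genes with at least 100 UMIs. With the free RNA profile of near-empty barcodes subtracted at 10% of the UMIs, 5 members were below -0.5, beside 3.19% of all genes. That share is larger than the Mt1 level of gCap allows, so the count describes an extreme setting. With a threshold of -1 there were 0 members, beside 0.298% of all genes.

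**Figure D3:**
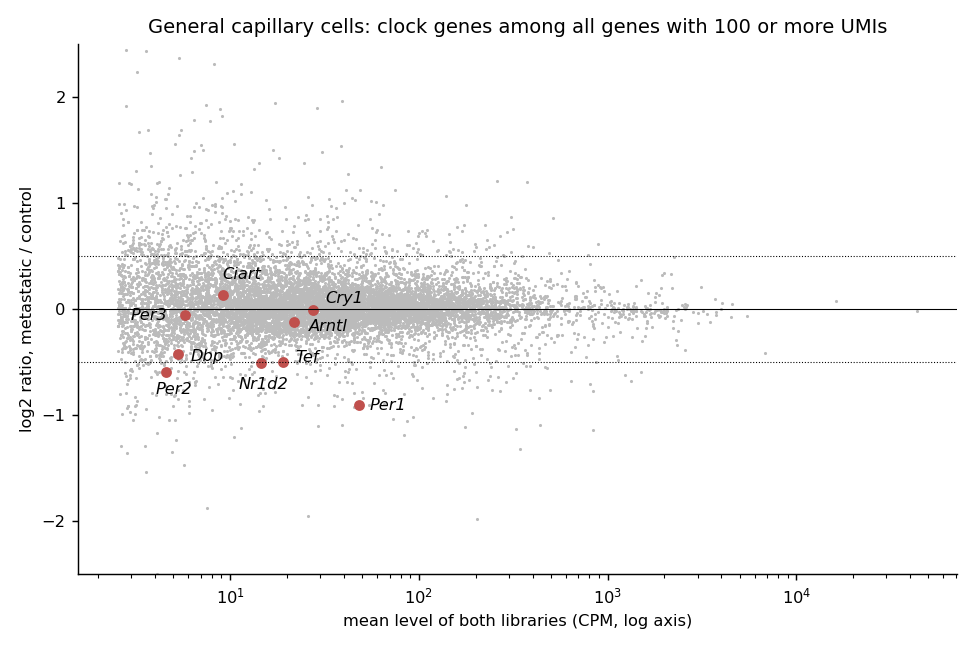
Log2 ratio of the metastatic to the control level in gCap (vertical axis) against mean level in CPM (horizontal log axis) for the 10413 genes with at least 100 UMIs. The 9 clock genes of that depth are marked, Per1 lies apart from the bulk at its level, Ciart is the only one above 0, and 9 other genes fall outside the vertical limits of -2.5 and 2.5.

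Aerocytes were examined next, as the other alveolar capillary cell. Per1 was again the member with the largest difference, Per2 was lower too, and the rest could not be told from 0. Per1 had 641 control and 256 metastatic UMIs, at 56.6 CPM (52.3 to 61.2) and 27.3 CPM (24.0 to 30.8). Its ratio was -1.05 (-1.27 to -0.84), and 0.158% of the 9504 genes with at least 100 UMIs lay lower. In cells thinned to 2000 UMIs the share with Per1 was 10.8% (9.18 to 12.6) in control and 5.40% (4.13 to 6.93) in metastatic aerocytes. Per2 had 114 and 55 UMIs, at 10.1 CPM (8.30 to 12.1) and 5.86 CPM (4.41 to 7.63), with a ratio of -0.78 (-1.27 to -0.30). The intervals of both genes lay wholly below 0.

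The REV-ERB and D-box members differed less in aerocytes. Nr1d2 had a ratio of -0.30 (-0.65 to 0.04), with 180 and 121 UMIs. Tef had 156 and 114 UMIs and a ratio of -0.18 (-0.54 to 0.18). Dbp, with 49 and 31 UMIs, had a ratio of -0.39 (-1.09 to 0.29). All 3 point estimates were below 0, but none could be told from 0 at this depth. Arntl was at -0.13 (-0.43 to 0.16), Cry1 at -0.06 (-0.27 to 0.16), Per3 at -0.37 (-0.93 to 0.17) and Ciart at -0.18 (-0.80 to 0.43). Of 7 members with at least 100 UMIs, 2 were below -0.5 and 0 above 0.5, beside 1.89% and 3.82% of all genes. The median of the 10 members, those under 100 UMIs included, was -0.34, and that of all genes with at least 100 UMIs was 0.03. In cells of 4000 to 8000 UMIs or without possible doublets, 3 members kept that depth. Per1 alone was below -0.5, beside 2.03% and 2.64% of all genes. Per2 had under 100 UMIs in both settings, with ratios of -0.91 (-1.88 to -0.02) and -1.03 (-1.90 to -0.19).

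In the smaller vein class 4 members reached 100 UMIs. Per1 was lower, with 129 control and 72 metastatic UMIs, at 58.5 CPM (48.8 to 69.5) and 26.9 CPM (21.1 to 33.9) and a ratio of -1.12 (-1.56 to -0.69). Tef had 64 and 50 UMIs and a ratio of -0.63 (-1.20 to -0.08). Arntl had 73 and 96 UMIs, with a ratio of 0.12 (-0.34 to 0.58), and Cry1 63 and 63 UMIs, with a ratio of -0.28 (-0.81 to 0.25). The 2 members below -0.5 stood beside 3.43% of the 6260 genes, and 0 members above 0.5 beside 5%. With at least 2 endothelial markers required, Per1 was at -1.12 and Tef at -0.60. Without possible doublets 77 and 144 vein cells remained, no member reached 100 UMIs, and Per1 was at -1.71. The other members had 40 UMIs or fewer over both libraries, except Nr1d2 with 39 and 34, and their intervals held 0.

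Artery cells held too few UMIs for any member to reach 100, and their values are given as counts. Per1 was counted 29 times in control and 7 times in metastatic artery cells, from 493087 and 486399 UMIs. Tef had 27 and 9 UMIs and Nr1d1 6 and 0, where 0 UMIs allow up to 6.17 CPM at a limit of 3 counts and up to 7.58 CPM by the exact Poisson interval. The ratio of Per1 was -2.03 (-3.47 to -0.81) and that of Tef -1.57 (-2.84 to -0.43). The levels of the other members overlapped between the libraries. Over the 4 classes together, Per1 had 2032 control and 989 metastatic UMIs with a ratio of -0.97 (-1.08 to -0.86). Per2 had 235 and 134 UMIs with a ratio of -0.74 (-1.06 to -0.43). Nr1d1 had 51 and 26, under the minimum of 100, with -0.90 (-1.64 to -0.19). Its levels were 1.52 and 0.812 CPM, far below the 13.7 and 10.98 CPM of free RNA, and the part of free RNA in them was not tested. Per3 (-0.20, -0.49 to 0.09) and Ciart (0.08, -0.18 to 0.35) stayed within counting error. The classes come from the same 2 pools of mice, so a like direction in several classes is not a replicate of the difference.

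Leukocytes carried through the sort, for which the labels name PECAM1 and no leukocyte marker, served as a different cell type from the same mice. They were cells with 2 or more of Ptprc, Cd52, Coro1a, Laptm5 and Rac2 and at most 1 of Cdh5, Cldn5, Tie1 and Kdr, and numbered 131 and 140. Per1 had 43 control and 51 metastatic UMIs there, at 44.2 CPM (32.0 to 59.6) and 48.3 CPM (35.9 to 63.5). Its ratio of 0.13 (-0.49 to 0.75) held 0, and the interval did not overlap that of gCap. In thinned leukocytes the share with Per1 was 8.40% (4.27 to 14.5) and 9.35% (5.07 to 15.5), and without thinning 26.7% and 25.7%. Nr1d2 had 19 and 7 UMIs, with a ratio of -1.56 (-3.05 to -0.25), and was the only member whose interval in leukocytes excluded 0. No test of the difference between cell types is possible with 1 library per group. In leukocytes the platelet markers stood at 801 and 2777 CPM and the red cell markers at 475 and 2124 CPM, and the part of that RNA in these values was not tested.

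Free RNA was measured in barcodes of 11 to 50 UMIs, from 656528 control and 728559 metastatic UMIs. It held Per1 at 41.1 CPM (27.1 to 59.8) in control and 39.8 CPM (26.7 to 57.2) in metastatic libraries, a ratio of -0.05 (-0.85 to 0.76). The Per1 level in free RNA thus lay between those of control and metastatic gCap. Its interval overlapped that of gCap of the same library, in the control library only from 59.4 to 59.8 CPM. Tef stood in free RNA at 25.9 and 34.3 CPM, Dbp at 7.62 and 9.61 CPM and Nr1d2 at 18.3 and 17.8 CPM, in both libraries above their gCap levels. Arntl, Cry1, Ciart and Per2 had lower levels in free RNA than in gCap in both libraries. None of the cell classes is known to lack Per1, so no share of cells could serve as a background for it.

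The next comparison asked whether the endothelial classes differ in their clock genes within a library, which uses both libraries as separate measurements. A difference was called where the log2 ratio to gCap was past 0.5 in the same direction in both. Genes needed at least 100 UMIs over the 2 classes and both libraries together, so a gene could enter through the class where it is high. Per2 was higher in aerocytes than in gCap, by 0.87 (0.48 to 1.26) in control and 0.68 (0.15 to 1.21) in metastatic cells. Ciart was lower in aerocytes, by ratios of -0.82 (-1.28 to -0.37) and -1.13 (-1.65 to -0.63). Of 9 members tested, these were the 2 called in aerocytes, 1 in each direction, while 9.54% of 11056 genes were called higher and 10.6% lower. The counts are near those shares and do not set the members apart from other genes. Cry1 was higher in aerocytes by 0.42 (0.23 to 0.60) and 0.37 (0.17 to 0.57), short of the threshold but with both intervals above 0. Tef was lower by ratios of -0.70 (-0.97 to -0.43) in control and -0.38 (-0.70 to -0.07) in metastatic aerocytes. Per1 itself was close in the classes, with ratios of -0.15 (-0.29 to -0.01) and -0.30 (-0.51 to -0.09).

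Vein cells differed from gCap past the threshold in Arntl and Ciart. Arntl was higher by 0.54 (0.16 to 0.90) in the control and 0.78 (0.44 to 1.10) in the metastatic library. In CPM these vein levels were 33.1 (25.9 to 41.6) and 35.9 (29.1 to 43.8). Ciart was lower in vein cells at -0.81 (-1.83 to 0.07) and -1.09 (-2.07 to -0.25), from 11 and 12 UMIs. It entered the comparison only through its 171 and 186 gCap UMIs, and its control interval held 0. Nr1d1 was higher than in gCap in the metastatic library alone, at 2.40 (0.89 to 3.85) from 8 vein UMIs, and its interval held 0 in the control library. Arntl and Ciart were thus the 2 of 9 tested members called, 1 in each direction, beside 6.9% of 10700 genes called higher and 7.79% called lower. Here too the counts are not far from those shares and do not set the members apart.

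**Figure D4:**
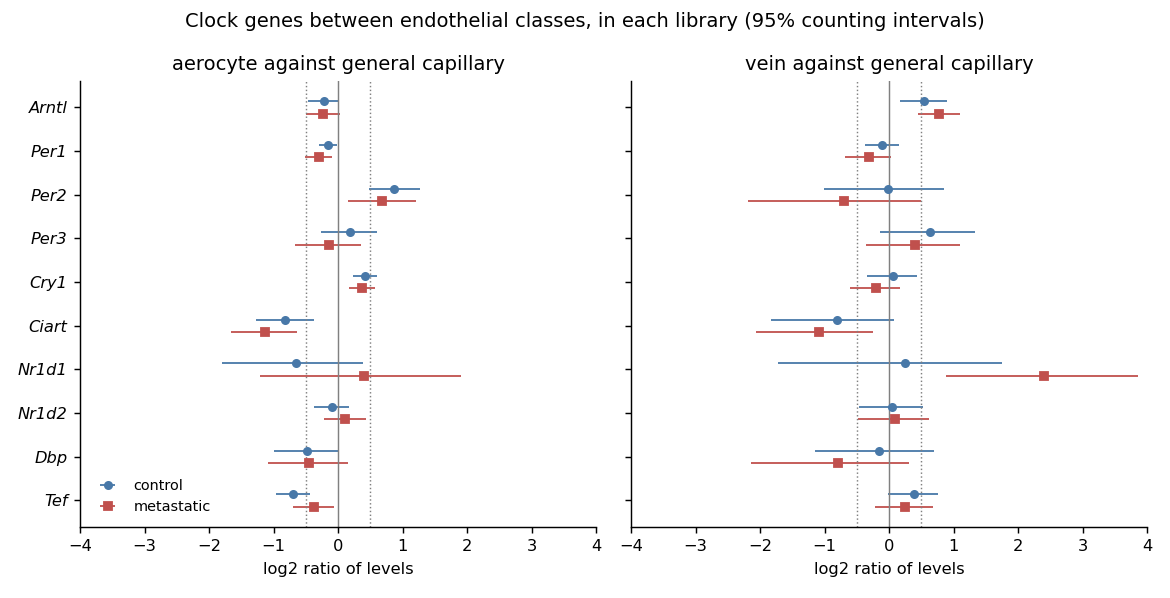
Log2 ratio of the level in aerocytes (left) and vein cells (right) to that in gCap of the same library (horizontal axes) for each clock gene. Circles are the control and squares the metastatic library, bars are 95% counting intervals, and Per2 and Cry1 lie above 0 in aerocytes, Ciart below 0 in aerocytes and Arntl above 0 in vein cells in both libraries.

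The rest of the clock machinery was read from a list of 29 further genes. In gCap 24 of them had at least 100 UMIs, and 1 was below -0.5 and 1 above 0.5, beside 2.33% and 4.81% of all genes. Counts this small are not far from those shares and do not set the list apart from other genes. Their median ratio was -0.04. The gene below was Bhlhe41, which encodes a repressor at E-boxes, with 135 control and 65 metastatic UMIs and a ratio of -1.04 (-1.49 to -0.61). The gene above was Timeless, known for its role in DNA replication, with 520 and 832 UMIs and a ratio of 0.69 (0.53 to 0.85). In aerocytes Timeless was at 0.94 (0.62 to 1.26), the 1 of 21 genes past the threshold, beside 1.89% of all genes below and 3.82% above. Bhlhe41 had only 36 and 27 UMIs there. In vein cells 1 of 18 was past it, Bhlhe40 at -0.81 (-1.13 to -0.51), beside 3.43% of all genes below and 5% above.

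Clock, the partner of Arntl, was level in gCap at 2086 and 1993 UMIs, with a ratio of -0.05 (-0.14 to 0.03). Its relative Npas2 had 2 UMIs in each library. Cry2 was at -0.32, with an interval from -0.64 to just below 0. Rora, which encodes an activator of Arntl, was at -0.19 (-0.32 to -0.06). Nfil3, which encodes a repressor at D-boxes, was at -0.04 (-0.36 to 0.28), and Bhlhe40 at -0.01 (-0.21 to 0.18). The activators and most regulators of the loop therefore lay within 0.35 of 0 on the log2 scale in gCap.

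**Figure D5:**
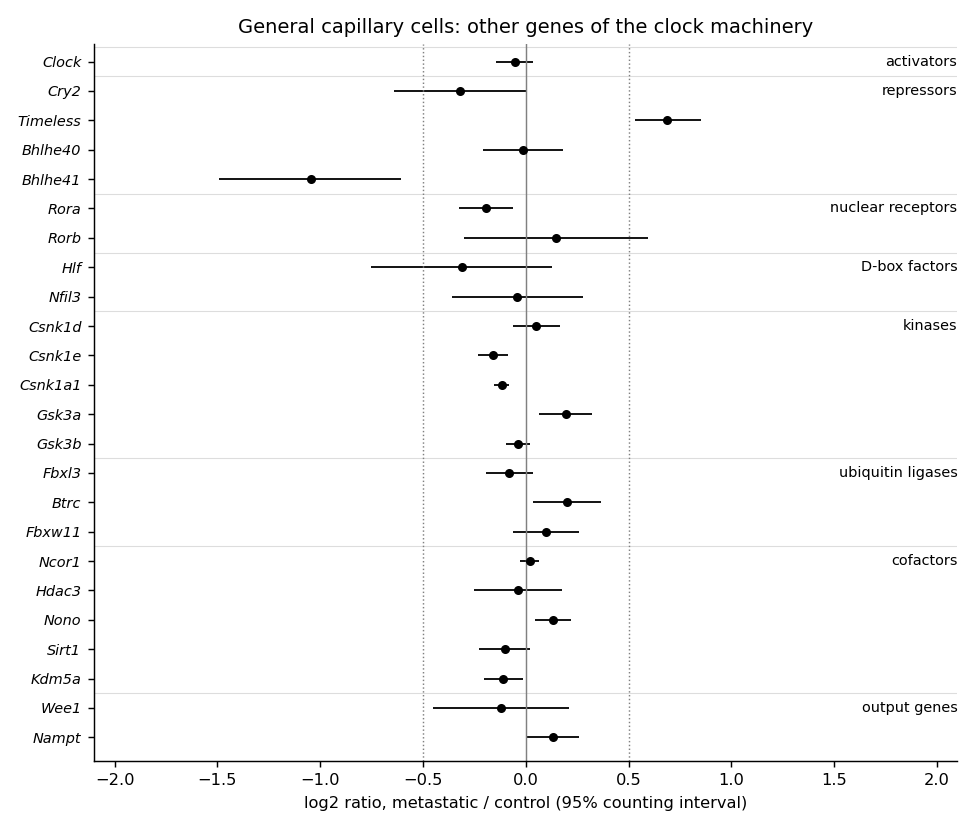
Log2 ratio of the metastatic to the control level in gCap (horizontal axis) for the 24 further clock genes with at least 100 UMIs, grouped by role. Points carry 95% counting intervals, dotted lines mark -0.5 and 0.5, and only Bhlhe41 (below) and Timeless (above) lie past them.

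Since Per1 also responds to glucocorticoids and to acute signals, 2 further lists were read beside it. Of 11 glucocorticoid-responsive genes, all with at least 100 UMIs in gCap, 5 were below -0.5. These were Zbtb16 at -1.32, Fkbp5 at -1.06, Klf9 at -0.77, Tsc22d3 at -0.76 and Cdkn1a at -0.59. Sgk1 at 0.21 (0.16 to 0.26) and Errfi1 at 0.13 (0.01 to 0.25) were higher, short of the threshold. Dusp1 was at -0.05 and Cebpd at -0.17. The metallothioneins Mt1 (1.96) and Mt2 (2.55), which metals also induce, were above 0.5, and the median of the list was -0.17. In aerocytes 7 of the 11 were below -0.5, including Mt1 (-0.90) and Mt2 (-1.07), 0 were above, and the median was -0.64. In vein cells 3 of 10 were below and 1 above. Of 8 immediate early genes, which rise when tissue is dissociated, 0 were past the threshold in gCap or aerocytes, and their medians were 0.00 and 0.08. In artery cells 4 of the 8 were below -0.5 (median -0.35), and in leukocytes 2 of the 8 (median -0.31). Fos was at -0.04 and Atf3 at 0.47 in gCap. In artery cells 5 of 8 glucocorticoid-responsive genes with that depth were below -0.5 (median -0.58), and in leukocytes 1 of 8 (median -0.29). Among all genes with that depth, the shares below -0.5 were 2.33% in gCap, 1.89% in aerocytes and 3.43% in vein cells. They were 6.4% in artery cells and 5.58% in leukocytes. Shares above 0.5 were 4.81% in gCap, 3.82% in aerocytes and 5% in vein cells. Both lists were chosen with earlier results of these data known, so the counts beside these shares are a description only. The part of either programme in the Per1 difference was not tested.

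The genes whose levels ran most like those of 3 members were found over the 8 points of 4 endothelial classes and 2 libraries, by Pearson correlation of log2(CPM + 1) among 2580 genes of at least 20 CPM and an SD of at least 0.3. For Per1 they were Fas (r = 0.97), Zcchc24, Hecw2, 5730455P16Rik and Lrp5 (0.91). For Dbp they were Msrb3 (0.95), Scarf1, Ints8, Fam135a and Mbtps2 (0.90), although Dbp had only 3 and 5 UMIs in artery cells. For Arntl they were Mustn1, Stox2, Bambi, Pkn3 and Gstm2, of which Mustn1 and Stox2 both had r = 0.98. These values describe 8 points that share 2 libraries and carry no test.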

How the data were processed

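Lung cells of 2 pooled mice per group were sorted for PECAM1 and sequenced with a kit that the labels give as Chromium Single Cell 3′ v2. The matrices list 6794880 barcodes, more than that version uses, so the kit version is uncertain. The deposited values were raw UMI counts per gene and barcode that the authors made with Cell Ranger on mm10. The file header names version 3.1.0, the study's methods name another, and Seurat is also listed in the submitters' processing notes. No cell filter or normalization had been applied to the deposited counts, and the annotation release and use of strand are not given in the sources used here.

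The 10 members and all gene lists were chosen with earlier results of these data known. A class cell needed UMIs of at least 2 markers of 1 class. gCap cells had in addition no UMI of the aerocyte, vein and artery markers, and cells meeting more than 1 of these 3 rules (46 control, 32 metastatic) were left out. No doublet caller was run. An alternative left out cells with at least 2 markers of leukocytes, epithelium, fibroblasts, platelets or red cells and the top 5% of UMIs per library. UMIs were summed per library and class, and genes with at least 100 UMIs over both libraries were counted as past the threshold below -0.5 or above 0.5 on the log2 scale. For class differences the 100 UMIs were taken over the 2 classes compared and both libraries. No test between groups was possible. All members were named, of the further clock genes those past the threshold in gCap and 7 fixed names (Bhlhe40, past it in vein cells, is 1 of these), and of the lists beside them the examples were picked after their values were seen. Alternatives changed the cell filters, class rules, scaling (TMM and RLE factors of edgeR 4.0.16), doublets, free RNA and thresholds. The ratio and its interval were tested on simulated data. Python 3.11.15, numpy 2.4.6, scipy 1.17.1, pandas 2.3.3, matplotlib 3.10.9 and R 4.3.3 were used. Gene positions came from GENCODE M21 (GRCm38, the assembly of mm10).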

Additional observations from a re-analysis of the deposited data

How the results depend on the processing

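The median ratio of the members stayed below 0 in gCap, aerocytes and vein cells under every alternative run, and so did the ratio of Per1, which ranged from -0.99 to -0.78 in gCap, from -1.17 to -0.85 in aerocytes and from -1.71 to -1.12 in vein cells. Per2 in gCap ranged from -0.78 to -0.06 and Dbp from -0.74 to -0.13, both nearest 0 without possible doublets, where each had under 100 UMIs, and Tef from -0.67 to -0.36. No ratio whose interval excluded 0 changed sign. Of 385 single ratios recomputed, 375 stayed inside their counting intervals and 10 left them. The count of members below -0.5 in gCap was 3. It was 5 with free RNA subtracted at 10% (3.19% of all genes) and 0 with a threshold of 1 (0.298%). With 3 markers for each class (2.32%) and with equal weight for each cell (2.3%) it was 2. A count of 4 came with a minimum of 1500 genes (2.39%), cells with 4000 to 8000 UMIs (2.06%), TMM factors (2.7%) and RLE factors (2.497%). Lower minimums also gave 4, but of 10 members and beside larger shares of all genes. These shares were 4.74% with 20 UMIs and 9.88% with 1 UMI in each library. In aerocytes it was 1 instead of 2 in cells with 4000 to 8000 UMIs (2.03% of all genes), without possible doublets (2.64%) and with a threshold of 1 (0.189%). In vein cells it was 0 instead of 2 in cells with 4000 to 8000 UMIs and without possible doublets, where no member had 100 UMIs. It was 1 with 3 markers for each class (4.39% of all genes), with free RNA subtracted (4.53%) and with a threshold of 1 (0.256%). It was 3 with equal weight for each cell (3.58%) and 4 with no minimum beyond 1 UMI in each library (10.7% of all genes). With that last setting 1 of 10 members, Nr1d1, was above 0.5 in vein cells, beside 17.1% of all genes. Requiring at least 2 endothelial markers, chosen after seeing the data, gave 4 in gCap (2.32% of all genes), 2 in aerocytes (1.82%) and 2 in vein cells (3.20%). The counts of class differences did not change.

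No paired analysis was possible because each group held 1 library. The doublet rule removed most control cells (3212 gCap became 940). Depth limited the members with few UMIs: Nr1d1, the artery class and the leukocytes allow no call, and an interval that holds 0 does not show that levels were equal.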
